A study of Homo sapiens with 25 samples.

Results

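Replication-dependent histone genes encode the linker histone H1 and the core histones H2A, H2B, H3 and H4 that package newly made DNA. The set described here holds every protein-coding gene whose current symbol is H1-1 to H1-6 or the histone class followed by C and a number, older names of the HIST1 to HIST4 type. It came to 69 of the 58302 genes in the count tables, namely 6 for H1, 17 for H2A, 18 for H2B, 13 for H3 and 15 for H4. H3C2, H3C3, H2AC18 and H2AC19 were found under older names, and the rest through a table of gene names. Chromosome 6 carries 55 of them, chromosome 1 carries 13, and H4C16 lies alone on chromosome 12.

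In dividing cells these genes are transcribed mainly in S phase, under the coactivator NPAT, when chromatin is assembled on replicated DNA. Their main mRNAs carry no poly(A) tail and end in a short stem-loop, which is bound by SLBP, after the U7 particle has directed cleavage just behind it. Several of the genes can also give polyadenylated mRNA from signals behind the stem-loop, a form known from cells that have left the cycle or differentiate. The libraries were made from RNA selected for poly(A), so the counts report mainly polyadenylated histone mRNA, and the tailless form is captured poorly.

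All 25 libraries came from hiF-T, a human fibroblast-like line made from BJ skin fibroblasts in which hTERT expression can be induced, with the genotype given as WT throughout. In the sort set, cells without treatment were left ungated or taken from the low, midlow, midhigh or high gate of dye accumulation, giving 5 groups of 4 libraries labelled biological replicates. Replicate 1 of the drug set held DMSO, DOT1L inhibition and LSD1 inhibition libraries, whereas replicate 2 held LSD1 inhibition with a library that had received no drug. The inhibitor compounds, doses and times, the dye values and the origin of a replicate (a culture or a sort day) were not given in the sources used here. The series calls the sort one by proliferation status. The p-values below measure the spread between these libraries of 1 cell line.

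The stem-loop was looked for behind the stop codon, on the transcript strand, as GGNNCTTNNNAGNNCC with complementary arms. It was found in 30 of the 35 histone genes whose GENCODE 29 models hold 16 or more bases past the stop, starting 23 to 68 bases behind it. Across all protein-coding genes 34 of 19097 (0.178%) had a match, and only 4 of those were no member of the set. The 5 forms are shown because they mark where the tailless mRNA ends and where a longer, polyadenylated one must read on. Capitals mark the arms of the stem.
H2AC6: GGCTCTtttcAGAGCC
H2BC5: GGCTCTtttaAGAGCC
H3C6: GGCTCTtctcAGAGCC
H4C8: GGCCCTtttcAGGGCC
H4C9: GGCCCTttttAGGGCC
The form shown for H2AC6 (chr6:26124669-26124684, GRCh38, plus strand) was the commonest, with 17 genes of H2A, H2B and H3. That of H2BC5 (chr6:26158587-26158602, plus strand) was shared by 4 H2B and H3 genes, and that of H3C6 (chr6:26225596-26225611, plus strand) was found in this gene alone. The 8 matches in H4 genes had an arm of their own, as in H4C8 (chr6:26285131-26285146, minus strand) for 5 genes and in H4C9 (chr6:27139654-27139669, plus strand) for 3.

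The gene models differed in how far they run past the coding part. A model with more than 100 bases behind the stop existed for 18 of the 23 histone genes that had enough counts to be tested in the sort set, and for 11 of the 46 that did not. Models with no base behind the stop numbered 4 of 23 and 30 of 46. Those 4 were H1-2, H1-5, H2AC20 and H2BC12, and reads from their 3′ ends could not be counted under such a model. The release used for counting was not given in the sources used here. Of the 5 tested genes with a spliced stretch behind the stop, H2AC6, H2BC4, H2BC5 and H4C8 also had the stem-loop, and H2BC11 had no match.

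Many H2A and H2B genes lie head to head, and the stretch between them holds the promoters of both. There were 12 neighbours transcribed away from each other across a gap of 218 to 356 bases, 11 of them an H2A and an H2B gene. RefSeq promoters (GRCh38.p14, 250 bases before to 50 after the start, 64 histone genes matched) were searched on both strands. CCAAT, bound by NF-Y, was present in 84.4% of them against 34.6% of all 35116 promoters, TATAAA in 65.6% against 11.5%, and the octamer ATTTGCAT, bound by OCT1, in 40.6% against 1.8%. The octamer was in 77.8% of H2B and 68.8% of H2A promoters and in 0.0% of those of H4. The promoters of H2BC11 and H2BC21 are shown because the H2A gene on the other side of each had a difference of the other sign between the outer gates, and that of H4C8 because it has none of these motifs. Capitals mark matches to these 3 motifs on either strand, and some of those to the TATA motif overlap.
H2BC11 (chr6:27132746-27133045, minus strand, shared with H2AC11): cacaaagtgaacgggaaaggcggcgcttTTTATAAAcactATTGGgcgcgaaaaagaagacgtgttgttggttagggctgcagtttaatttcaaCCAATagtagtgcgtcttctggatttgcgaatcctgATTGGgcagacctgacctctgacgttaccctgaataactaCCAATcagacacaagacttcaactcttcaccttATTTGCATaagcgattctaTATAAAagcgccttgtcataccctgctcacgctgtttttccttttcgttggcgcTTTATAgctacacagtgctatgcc
H2BC21 (chr1:149886633-149886932, minus strand, towards H2AC20): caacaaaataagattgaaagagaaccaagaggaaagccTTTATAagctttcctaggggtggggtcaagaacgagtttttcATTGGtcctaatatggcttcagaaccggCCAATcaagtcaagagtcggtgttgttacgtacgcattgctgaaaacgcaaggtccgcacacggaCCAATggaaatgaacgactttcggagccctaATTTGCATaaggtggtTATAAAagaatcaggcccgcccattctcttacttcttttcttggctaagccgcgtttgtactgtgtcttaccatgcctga
H4C8 (chr6:26285485-26285784, minus strand): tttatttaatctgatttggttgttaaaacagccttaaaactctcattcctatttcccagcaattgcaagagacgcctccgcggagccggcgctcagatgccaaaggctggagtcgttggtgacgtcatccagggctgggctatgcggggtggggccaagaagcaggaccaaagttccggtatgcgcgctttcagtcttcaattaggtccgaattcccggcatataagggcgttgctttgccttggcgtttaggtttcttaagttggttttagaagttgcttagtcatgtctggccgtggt

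Gene counts summed to 15015039 to 20030093 per library, of which the 69 histone genes took 633 to 2536. Levels are given in CPM, counts scaled to library size with TMM factors, and 3 counts, the limit that a count of 0 allows, equal 0.15 to 0.20 CPM (counting error only). Averaged over all libraries, 12 of 13 fibroblast markers reached 1 CPM and none of 7 immune cell markers did, with TYROBP listed at 0 in all groups. The summed level of the fibroblast markers was 21960 to 30040 CPM in high dye and 17730 to 19580 CPM in low dye. That of 6 melanocyte markers was 2.10 to 6.89 and 1.78 to 2.82 CPM, with SOX10 at 0 in all groups. Immune markers summed to 0.538 to 1.38 and 0.153 to 0.735 CPM, epithelial markers to 132 to 336 and 129 to 310 CPM, and endothelial markers to 77.9 to 96.9 and 66.4 to 98.1 CPM. Their part in the histone results was not tested.

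Replicate 3 stood apart for the histone genes. The summed level of all 69 was 66.6, 66.9, 152 and 80.0 CPM in high dye replicates 1 to 4 and 49.1, 52.0, 103 and 57.4 CPM in midhigh dye. In ungated cells it was 45.2, 53.6, 89.4 and 55.3 CPM. The library of replicate 3 was the highest in each of these groups. Midlow dye (48.3, 49.4, 46.9 and 46.2 CPM) and low dye (47.8, 46.3, 40.5 and 43.5 CPM) showed no such gap, and low dye replicate 3 was the lowest of its group. Results below are therefore also given without replicate 3 where that matters.

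**Figure D1:**
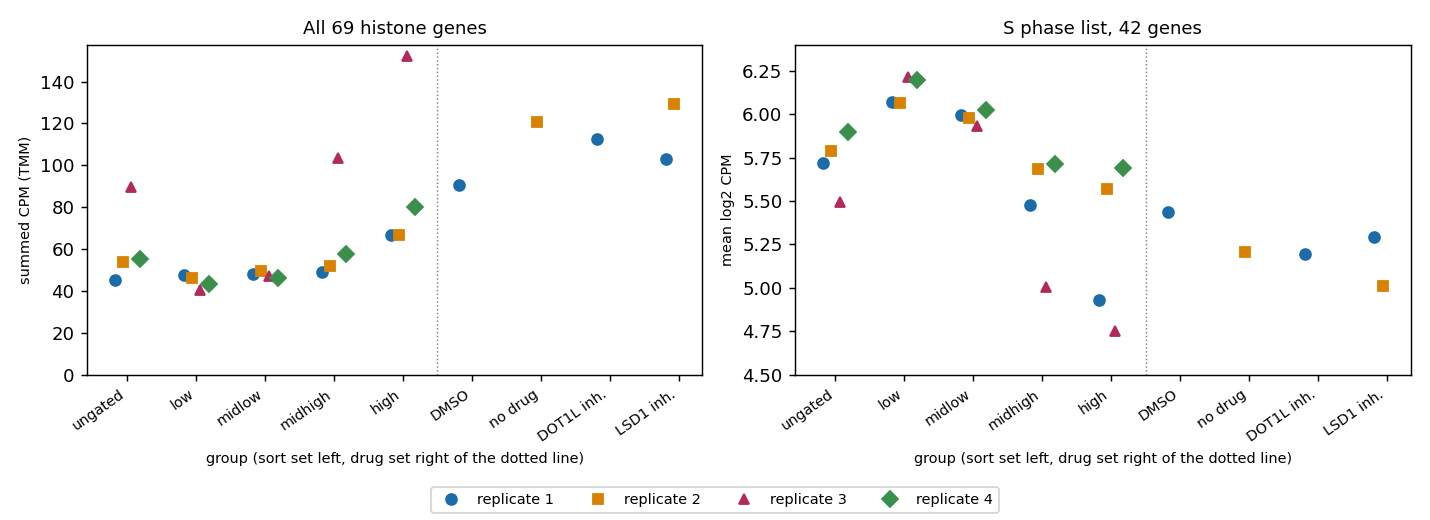
Left, summed CPM of the 69 histone genes in each library. Right, mean log2 CPM of 42 S phase genes in the same libraries, on an axis that does not start at 0. Points are libraries, coded by replicate number. Replicate 3 is highest on the left and lowest on the right in ungated, midhigh and high dye, and the drug set lies between 90.6 and 129.5 CPM.

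Of the 69 genes, 46 were below the count filter of the sort set. No count was found for 11 of these in any of the 25 libraries, among them H2AC18, a near-identical copy of H2AC19, and H3C14, one of H3C15, all 4 without a count. Reads that match more than 1 place had left no total in the deposited tables, so genes with near-identical copies are uncertain throughout. In GENCODE 29, H2AC15 and H3C4, also without a count, share all of their exon length with other genes, and H2AC7 nearly all. H2AC17, with 2 counts in all, shares most of its own. H2AC1, H2BC1 and H4C7 had no count and share none. The part of such overlap in the missing counts was not tested. The highest of the 46 by total count was H3C3, with 169 counts over 25 libraries, and the highest level in any library was 1.38 CPM for H4C3 after DOT1L inhibition. Together the untested genes summed to 4.92 ± 0.608 CPM in ungated, 5.70 ± 1.70 in high dye and 4.59 ± 0.869 in low dye cells (SD, n = 4 each). The strand was not recorded by the library kit, and H2BC15, whose model spans other histone genes, shares 7.2% of its exon length with H2A genes of both strands.

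Levels between genes were compared per kilobase of exon model. In ungated cells H1-2, a linker histone of the chromosome 6 cluster (ENSG00000187837, chr6:26055787-26056428), was the highest at 12.99 ± 3.19 CPM per kilobase, followed by H2BC12 (ENSG00000197903, chr6:27146418-27146798) at 12.03 ± 4.24 and H2AC6 (ENSG00000180573, chr6:26124145-26139116) at 5.68 ± 3.11 (SD, n = 4). The first 2 of these differed by less than their spread. Next came H2AC25 at 4.25 ± 0.600, H2BC5 at 2.59 ± 0.810 and H2BC21 at 2.56 ± 1.88 CPM per kilobase, and H2BC5 and H2BC21 differed by less than their spread. The lowest tested gene was H3C8 at 0.152 ± 0.0633 CPM per kilobase. In low dye cells H1-2 and H2BC12 kept the upper places at 12.4 ± 1.88 and 9.24 ± 0.961, while H2AC6 stood at 2.78 ± 0.499 and H2AC25 at 3.02 ± 0.885 CPM per kilobase. A model without a 3′ end has a small length, which raises the value per kilobase of H1-2 and H2BC12 relative to the others.

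The comparison of high with low dye cells asked which histone genes differ between the ends of the dye range. Of the 23 tested, 10 were higher in high dye (43.5%, against 9.39% of all 14592 genes tested) and 1 was lower (4.35%, against 8.35%), by edgeR's quasi-likelihood test at a Benjamini-Hochberg adjusted p under 0.05. The median log2 fold change of the 23 was 0.85, against 0.01 over all genes. Members from every class rose, with log2 fold changes from 0.84 (H1-2) to 2.42 (H4C16). In CPM 12 of the 23 were higher in 4 of 4 pairs of the same replicate number, namely the 10 and the uncalled H2BC4 and H3C10. These are the libraries that gave the calls, so the pairs add no separate support. For H4C16 both libraries of the replicate 2 pair had 3 counts. With the replicate number as a block 13 were higher (19.8% of all genes) and 2 lower (17.4%), the additions being H2BC4, H2BC8 and H4C9 upwards and H2AC20 downwards. Each member called without the block had a smaller adjusted p with it, from 8.87e-07 (H2AC6) to 0.0121 (H4C16) in edgeR. Calls of single genes that were lost without some libraries refer below to the fit without the block, unless the block is named. Single libraries were not left out of the blocked fit, so those losses belong to a fit that ignores the replicate numbers. In bulk RNA, fewer expressing cells and less mRNA per cell cannot be told apart.

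Among the linker histones, 3 of 6 were tested and H1-2 rose. H1-2 stood at 7.64, 9.72, 7.29 and 7.10 CPM in low dye replicates 1 to 4 and at 9.05, 10.9, 25.2 and 11.8 CPM in high dye. Its levels were 7.33, 10.4, 8.19 and 6.88 CPM in midlow, 7.93, 12.6, 16.5 and 9.52 CPM in midhigh and 6.70, 10.4, 9.83 and 6.46 CPM in ungated cells. The groups overlapped at their edge, since high dye replicate 1 lay below low dye replicate 2. The log2 fold change of H1-2 was 0.84 ± 0.28 (SE), with an adjusted p of 0.0457 in edgeR. Without high dye replicate 3 it was 0.41 and no longer passed, and the call was also lost without low dye replicate 1, 3 or 4. H1-4 (0.25 ± 0.40) and H1-5 (-0.06 ± 0.52) did not pass the test.

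Of the H2A genes 5 were tested, and H2AC6 and H2AC25 rose while H2AC11 fell. H2AC6 was at 5.57, 3.56, 4.61 and 4.84 CPM in low dye replicates 1 to 4, at 5.54, 4.31, 6.48 and 6.09 CPM in midlow, at 8.62, 6.05, 18.5 and 8.63 CPM in midhigh and at 14.0, 10.3, 26.7 and 13.4 CPM in high dye. Ungated cells held 6.47, 6.04, 17.1 and 8.29 CPM. All 4 high dye libraries lay above all 4 low dye libraries, and replicate 3 was the highest in high, midhigh and ungated cells. The means were 16.1 ± 7.23 and 4.64 ± 0.832 CPM (SD, n = 4 each), a log2 fold change of 1.79 ± 0.37 (SE) and the smallest adjusted p of the set (0.00356, edgeR). H2AC25, a gene of the small cluster on the long arm of chromosome 1 (ENSG00000181218, chr1:228456979-228457873), had 3.82, 1.98, 2.37 and 2.63 CPM in low and 4.73, 4.79, 5.58 and 4.36 CPM in high dye, again without overlap. It changed by 0.85 ± 0.19 (adjusted p = 0.00581, edgeR). This call was lost without all replicate 3 libraries, but was kept in that reduced set with the replicate block.

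H2AC11 (ENSG00000196787, chr6:27133042-27135291) was the only tested histone gene that fell, and the 10 that rose had larger log2 fold changes, so it lay outside the rule for naming genes and was chosen after its values were seen. It stood at 3.51, 3.46, 4.09 and 3.49 CPM in low dye and at 1.40, 2.91, 1.68 and 2.70 CPM in high dye, without overlap. The inner gates lay between or alongside, at 3.06, 2.89, 3.82 and 3.11 CPM in midlow and 2.28, 2.53, 1.63 and 2.29 CPM in midhigh dye. The log2 fold change was -0.74 ± 0.21 (adjusted p = 0.0225, edgeR). This call was lost without high dye replicate 1, without high dye replicate 3 and without low dye replicate 3. H2AC20 was at 1.38, 1.32, 0.576 and 0.612 CPM in low and 0.525, 0.700, 0.300 and 0.459 CPM in high dye, a log2 fold change of -0.96 ± 0.58 that passed with the replicate block (-0.95 ± 0.35), and H2AC8 (0.26 ± 0.50) did not pass.

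The H2B genes gave 8 tested members, of which 4 rose. H2BC21 (ENSG00000184678, chr1:149884459-149886652), known for its polyadenylated mRNA in resting cells, held 1.69, 1.93, 1.73 and 2.39 CPM in low dye and 5.37, 3.23, 18.5 and 6.83 CPM in high dye. Its levels were 2.27, 1.81, 3.00 and 3.11 CPM in midlow, 3.42, 3.11, 11.7 and 5.08 CPM in midhigh and 2.40, 3.26, 11.6 and 5.27 CPM in ungated cells. The outer gates did not overlap, and high dye replicate 3 was far above the other three. The log2 fold change was 2.12 ± 0.55 (adjusted p = 0.0127, edgeR), and without high dye replicate 3 it was 1.40 and no longer passed.

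H2BC5 (ENSG00000158373, chr6:26158146-26171349) stood at 1.19, 2.24, 0.704 and 1.29 CPM in low, 1.37, 2.15, 1.64 and 1.04 CPM in midlow, 1.84, 1.76, 4.77 and 1.97 CPM in midhigh and 2.98, 3.34, 4.98 and 3.39 CPM in high dye, with 1.60, 2.40, 3.19 and 1.84 CPM in ungated cells. Here low dye replicate 3 was the lowest and high dye replicate 3 the highest of all. H2BC12 was at 3.76, 3.87, 3.39 and 3.06 CPM in low, 3.32, 4.60, 2.87 and 3.29 CPM in midlow, 3.23, 4.05, 9.79 and 4.70 CPM in midhigh and 5.19, 5.22, 13.8 and 6.66 CPM in high dye, with 4.24, 2.88, 6.77 and 4.44 CPM in ungated cells. H2BC11 (ENSG00000124635, chr6:27125897-27132750) was at 1.13, 0.509, 1.02 and 0.490 CPM in low, 0.843, 0.832, 1.23 and 0.914 CPM in midlow, 1.08, 0.646, 2.63 and 1.21 CPM in midhigh and 1.75, 1.35, 3.18 and 1.03 CPM in high dye, with 1.20, 1.50, 1.53 and 1.07 CPM in ungated cells. The outer gates were apart for H2BC5 and H2BC12 and overlapped for H2BC11. Log2 fold changes were 1.41 ± 0.36 for H2BC5, 1.13 ± 0.35 for H2BC12 and 1.22 ± 0.41 for H2BC11, with adjusted p of 0.0114, 0.0304 and 0.0438 in edgeR. All these 3 calls were lost without high dye replicate 3, with H2BC12 then at 0.69. That of H2BC12 was lost without any 1 low dye library as well, and that of H2BC11 without high dye replicate 1 and without low dye replicate 2, 3 or 4.

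A further pair of H2B genes passed between the outer gates with the block but not without it. H2BC8 (ENSG00000273802, chr6:26215159-26216692) was at 1.00, 1.02, 0.832 and 0.796 CPM in low, 0.632, 0.587, 0.750 and 1.22 CPM in midlow, 0.698, 0.881, 3.51 and 1.46 CPM in midhigh and 0.934, 1.67, 7.01 and 1.72 CPM in high dye, with 0.916, 0.855, 3.59 and 1.01 CPM in ungated cells. H2BC4 (ENSG00000180596, chr6:26114873-26123926) was at 0.939, 0.509, 0.832 and 0.796 CPM in low, 0.632, 0.538, 1.16 and 0.426 CPM in midlow, 0.698, 0.705, 3.07 and 1.08 CPM in midhigh and 1.34, 0.754, 4.14 and 1.55 CPM in high dye, with 1.09, 0.588, 2.92 and 1.48 CPM in ungated cells. In both genes replicate 3 exceeded the other three in high, midhigh and ungated cells by more than their whole range. Log2 fold changes were 1.62 ± 0.61 for H2BC8 and 1.34 ± 0.57 for H2BC4 without the block, and 1.36 ± 0.38 and 1.18 ± 0.30 with it. Both also passed with no count filter, and H2BC8 in DESeq2. Without all replicate 3 libraries neither passed, with or without the block, and the log2 ratio of mean CPM was 0.62 for H2BC8 and 0.70 for H2BC4. H2BC9 (0.01 ± 0.28) and H2BC15 (0.44 ± 0.31) passed neither test.

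H3C6 was the 1 of 3 tested H3 genes that rose (ENSG00000274750, chr6:26224199-26227473). It stood at 1.31, 0.610, 0.960 and 1.53 CPM in low, 1.11, 0.881, 0.887 and 1.28 CPM in midlow, 1.52, 1.06, 3.83 and 2.03 CPM in midhigh and 2.57, 2.10, 5.64 and 3.16 CPM in high dye, with 1.49, 1.87, 2.92 and 1.72 CPM in ungated cells. The outer gates did not overlap, the log2 fold change was 1.61 ± 0.38 (adjusted p = 0.00804, edgeR), and the call was kept without high dye replicate 3 and without all replicate 3 libraries. H3C8 (-0.63 ± 0.43) and H3C10 (0.64 ± 0.42) did not pass.

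Of 4 tested H4 genes 2 rose. H4C8 (ENSG00000158406, chr6:26277609-26285638) stood at 1.56, 1.02, 1.34 and 1.41 CPM in low, 1.84, 0.832, 1.77 and 2.07 CPM in midlow, 2.22, 0.470, 6.71 and 3.55 CPM in midhigh and 5.49, 2.26, 12.9 and 4.02 CPM in high dye, with 1.83, 1.34, 5.38 and 2.31 CPM in ungated cells. Low and high dye did not overlap, and the log2 fold change was 2.21 ± 0.61 (adjusted p = 0.0180, edgeR), a call that was lost without high dye replicate 3. H4C16 (ENSG00000197837, chr12:14767999-14771131) rested on few reads, with 2, 3, 0 and 1 counts in low dye and 8, 3, 12 and 12 counts in high dye. In CPM these were 0.125, 0.153, 0 and 0.0612 and 0.467, 0.162, 0.720 and 0.689. Midlow cells had 0.211, 0.0979, 0.341 and 0.244 CPM, midhigh 0.317, 0.764, 0.376 and 0.254 CPM and ungated cells 0.343, 0.0534, 0.797 and 0.533 CPM. Its log2 fold change of 2.42 ± 0.73 (adjusted p = 0.0274, edgeR) depends on the prior count of the fit. None of the low dye libraries reached 10 counts for it. The call was lost without high dye replicate 1, 3 or 4 and without low dye replicate 3 or 4, and the gene was below the count filter in the fit of the 4 gates. H4C9 was at 0.92 ± 0.38 and passed with the block (0.80 ± 0.29) or with no count filter, but not without all replicate 3 libraries, and H4C5 (0.81 ± 0.55) did not pass.

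Without high dye replicate 3, 3 members remained higher (H2AC6, H2AC25 and H3C6) and 0 lower, while calls in either direction over all genes went from 2589 (17.7%) to 1255 (8.50%). Without all replicate 3 libraries 3 were higher (H2AC6, H2BC21 and H3C6) and 0 lower (6.03% of all genes in either direction). With the block in that reduced set 9 were higher and 1 lower (3858 of 14703 genes). The 9 were H1-2, H2AC6, H2AC25, H2BC5, H2BC11, H2BC12, H2BC21, H3C6 and H4C8, and H2AC11 was lower. Leaving out low dye replicate 3 or low dye replicate 4 left 6 higher in each case (1777 of 14859 and 1832 of 14850 genes called in either direction). The median log2 fold change of the tested members was 0.64 without high dye replicate 3 and 0.56 without all replicate 3 libraries.

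**Figure D2:**
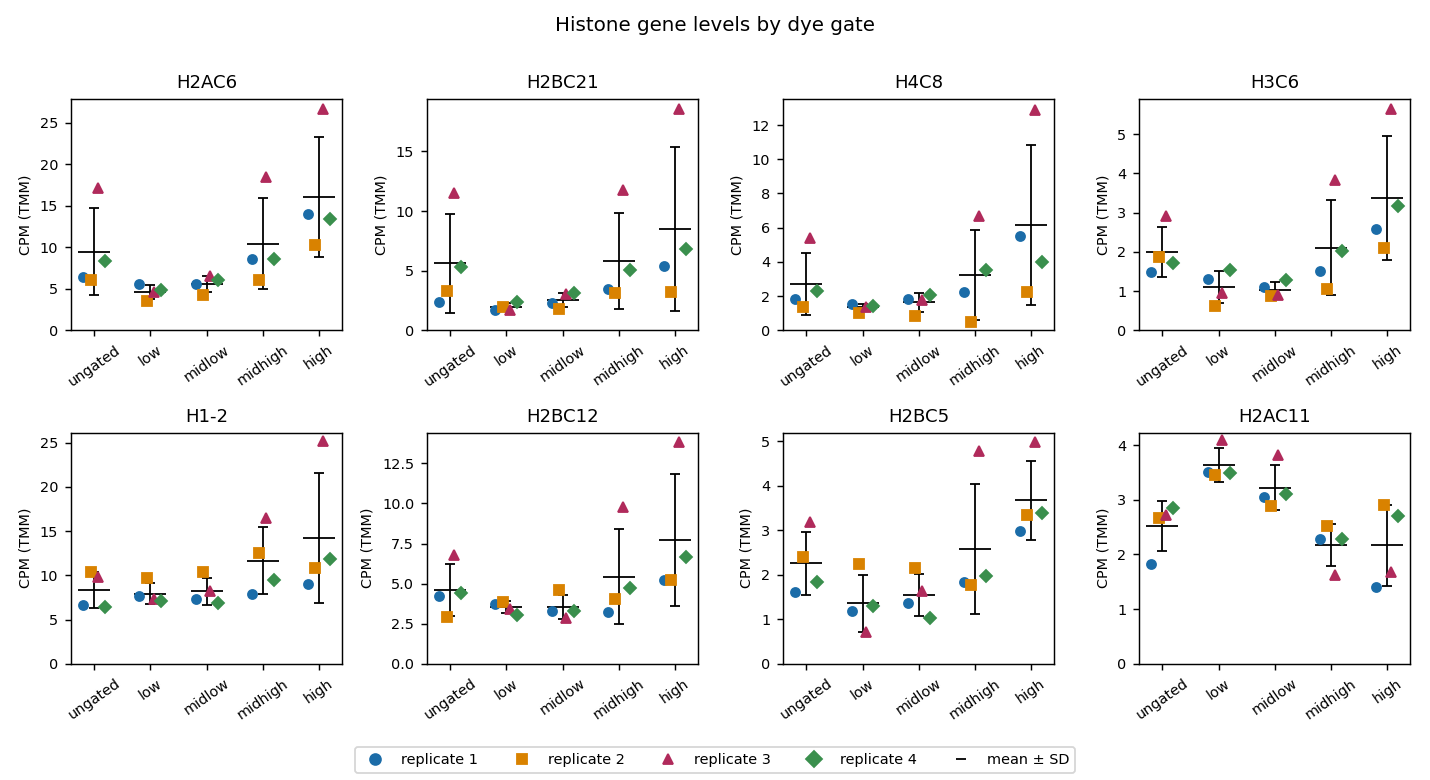
CPM of 8 histone genes in each of the 20 sort libraries by gate, with points coded by replicate and bars for mean ± SD (n = 4). The first 7 are highest in high dye, with replicate 3 on top there, whereas H2AC11 is highest in low dye.

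**Figure D3:**
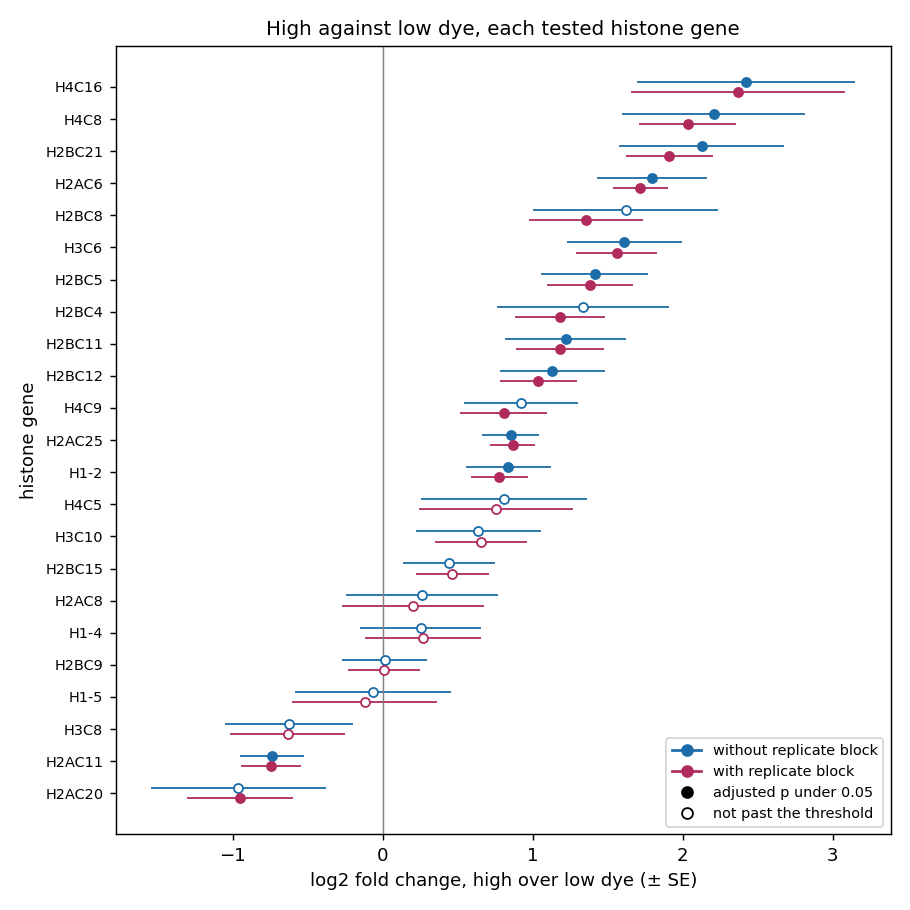
Log2 fold change of high over low dye for the 23 tested histone genes, with bars of 1 standard error, without and with the replicate block. Filled points passed an adjusted p under 0.05, namely 10 higher and 1 lower without the block and 13 higher and 2 lower with it.

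From low through midlow and midhigh to high dye, taken as 4 equally spaced gates, 12 of 22 tested members rose (54.5%, against 14.0% of 14419 genes) and H2AC11 alone fell (12.3% of all genes), by edgeR at an adjusted p under 0.05. The median change per gate was 0.29 on the log2 scale, against 0.00 over all genes. Besides 9 of the 10 genes named above, H2BC4, H2BC8 and H4C9 passed. The largest steps were those of H4C8 (0.78 ± 0.18 per gate), H2BC21 (0.76 ± 0.15) and H2AC6 (0.63 ± 0.10), and H2AC11 changed by -0.28 ± 0.07 per gate. The others rose by 0.28 (H2AC25) to 0.61 (H2BC8) per gate. With the block the same 12 rose (23.1% of all genes), and H2AC20 joined H2AC11 in falling (20.7%). Without high dye replicate 3 the number that rose was 7 and the median 0.18, and without all replicate 3 libraries 5 rose. Calls in either direction over all genes were then 17.2% and 11.2%, against 26.2%.

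Between the inner gates, midhigh against midlow dye, no member passed in either direction (0.00% of all genes), and 6 members were below an unadjusted p of 0.05 among 1891 of 14592 genes. DESeq2 called 0 members as well. The 3 largest differences on the log2 scale were those of H2BC21 (1.20 ± 0.54), H2BC8 (1.04 ± 0.65) and H2BC4 (1.02 ± 0.60), and the median was 0.50. With the block H2AC6 (0.81 ± 0.19), H2BC21 (1.05 ± 0.29) and H3C6 (0.92 ± 0.29) were higher in midhigh dye (5.52% of all genes) and 0 lower (5.27%). The median was 0.16 without midhigh dye replicate 3 and 0.13 without all replicate 3 libraries. In the latter set H2AC6 alone passed with the block, a call given without the share over all genes.

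Both outer gates were also set against the same ungated libraries. In high dye no member passed (0.00685% of all genes were higher, 0.00% lower), with 4 members among 1543 genes at an unadjusted p under 0.05 and 0 members by DESeq2. The largest differences were H4C8 at 1.20 ± 0.57, H2AC8 at 1.12 ± 0.55 and H2AC20 at -0.86 ± 0.59, and the median was 0.43, or 0.75 without ungated replicate 3 and 0.28 without high dye replicate 3. With the block H4C8 (1.14 ± 0.29), H2AC6 (0.78 ± 0.17) and H1-2 (0.73 ± 0.19) were higher (3.66% of all genes), and 0 were lower (3.93%). In low dye no member passed either (0.0754% of all genes were lower, 0.00% higher), with 7 members among 1898 genes at an unadjusted p under 0.05 and 0 by DESeq2. H4C16 at -2.16 ± 0.75, H2BC21 at -1.52 ± 0.56 and H2AC6 at -1.03 ± 0.37 differed most. The median was -0.37, or -0.17 without ungated replicate 3 and -0.13 without all replicate 3 libraries. With the block H2BC21 (-1.35 ± 0.30), H2AC6 (-0.93 ± 0.19) and H2AC25 (-0.50 ± 0.16) were lower than in ungated cells (7.20% of all genes) and 0 higher (3.59%).

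Both genes could be tested in 4 of the 11 head-to-head H2A and H2B neighbours, and their ratio within a library does not depend on the scaling between libraries. H2BC11 over H2AC11 had log2 count ratios of -1.61, -2.71, -1.97 and -2.76 in low dye and 0.32, -1.10, 0.91 and -1.36 in high dye. H2BC21 over H2AC20 had ratios of 0.29, 0.54, 1.53 and 1.91 in low and 3.28, 2.16, 5.81 and 3.81 in high dye. H2BC8 over H2AC8 had 0.80, -0.20, 0.85 and 0.51 in low and 1.87, 1.02, 1.99 and 1.54 in high dye. In these 3 neighbours every high dye library had a larger H2B share than every low dye library. Some denominators were small, since in high dye replicates 1 to 4 H2AC20 had 9, 13, 5 and 8 counts and H2AC8 had 4, 15, 29 and 10. A small constant was added to each count. The model of H2BC21 holds 1801 bases behind the stop and that of H2AC20 none, so their ratio sets unlike parts of the mRNAs against each other.

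The mean log2 ratio differed between high and low dye by 1.95 for H2BC11 over H2AC11, by 2.70 for H2BC21 over H2AC20 and by 1.12 for H2BC8 over H2AC8. Each had a two-sided exact permutation p of 0.0286, the smallest that 70 assignments of 4 and 4 libraries allow, and 0.0381 after Benjamini-Hochberg adjustment over the 4 neighbours. For H2BC4 over H2AC6 the ratios were -2.53, -2.75, -2.42 and -2.56 in low and -3.35, -3.73, -2.68 and -3.09 in high dye, a difference of -0.65 that did not pass (exact permutation p = 0.0571). There both genes had log2 fold changes above 0, with 1.79 for H2AC6 and 1.34 for H2BC4. Among the 5 sort groups, the mean levels of H2AC11 and H2AC20 were lowest in high dye, where those of H2BC11 and H2BC21, transcribed from the other side of the gap, were highest. For H2AC11 the means in high and midhigh dye were nearly equal, at 2.17 and 2.18 CPM. The 70 assignments ignore the replicate numbers. Permuted within the 4 same-numbered pairs, each of the 4 ratios had an exact p of 0.125, the smallest that 16 assignments allow, so none passed with the pairing kept, which this design cannot reach. The difference had 1 sign in all 4 pairs for each ratio. Leaving out any 1 of the low dye libraries ended the 3 calls, at an adjusted exact permutation p of 0.0762 to 0.0857 with the direction kept. High and low dye libraries then still lay apart, and fewer libraries allow fewer assignments, so this loss cannot be told from the coarser steps of the test. This comparison was chosen after the values of these genes had been seen.

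**Figure D4:**
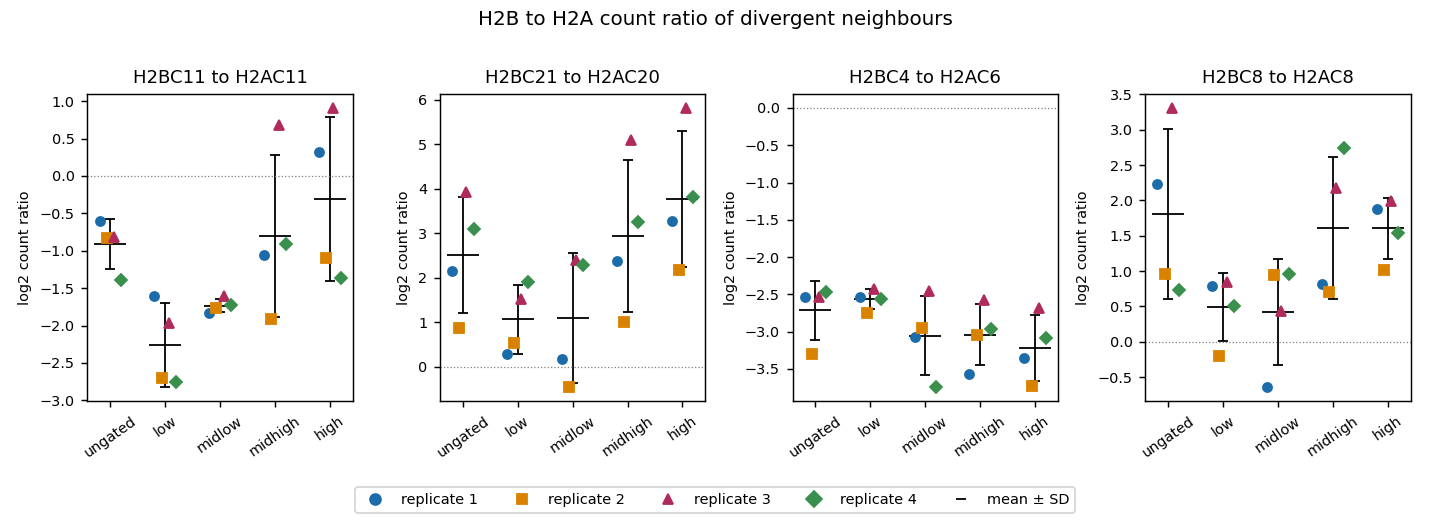
Log2 ratio of H2B to H2A counts for 4 head-to-head neighbours in the 20 sort libraries, with points coded by replicate and bars for mean ± SD (n = 4). High dye libraries lie above low dye libraries for H2BC11 to H2AC11, H2BC21 to H2AC20 and H2BC8 to H2AC8, and mostly below them for H2BC4 to H2AC6.

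Genes that work on histone genes, mRNAs and proteins were followed beside them between high and low dye. Of all genes tested in this comparison, 9.39% were higher and 8.35% lower. Of 7 genes for histone gene transcription 0 rose and 4 fell, with a median log2 fold change of -0.39, against 0.01 over all genes tested. The coactivator NPAT changed by -0.39 ± 0.10 (adjusted p = 0.00925, edgeR), from 39.6 ± 1.61 CPM in low to 30.2 ± 4.43 CPM in high dye (SD, n = 4 each). Cyclin E2 (CCNE2, -0.83 ± 0.27), CASP8AP2, a histone locus body protein (-0.70 ± 0.12), and CDK2, the partner kinase of cyclin E (-0.62 ± 0.16), fell too. Of 13 genes for histone mRNA 3′ processing and decay 1 rose and 6 fell (median -0.24). SLBP, the stem-loop binding protein, changed by -0.52 ± 0.11 (adjusted p = 0.00401, edgeR), from 97.2 ± 13.9 to 67.8 ± 6.25 CPM. The exonuclease ERI1 (-0.54 ± 0.11), EXOSC10 of the exosome (-0.35 ± 0.07) and the uridyl transferase TUT7 (0.29 ± 0.07) also passed, the last upwards.

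Of 10 tested histone chaperone and import genes 0 rose and 9 fell (median -0.50), among them both large CAF-1 subunits CHAF1B (-0.94 ± 0.21) and CHAF1A (-0.88 ± 0.18), the H3-H4 chaperones NASP (-0.87 ± 0.15) and ASF1B (-0.82 ± 0.26). Of 12 genes for general cleavage and polyadenylation 0 rose and 4 fell (median -0.14), with NUDT21 at -0.52 ± 0.10, CPSF6 at -0.38 ± 0.07, CPSF4 at -0.31 ± 0.07 and poly(A) polymerase PAPOLA at -0.27 ± 0.07. Of 42 S phase genes 0 rose and 40 fell (median -0.85). For each of these lists the shares over all genes were 9.39% higher and 8.35% lower. The mean log2 CPM of this S phase list was 6.06 to 6.21 in low dye libraries and 4.93, 5.57, 4.75 and 5.69 in high dye replicates 1 to 4. High dye replicate 3 thus had the highest histone sum and the lowest S phase level, and midhigh dye replicate 3 was the lowest of its gate as well. The other replicates of these gates did not show this inverse order, since among them both values rose together. High dye replicate 1, next lowest in S phase level (4.93), had the lowest histone sum of its gate (66.6 CPM). The part of cell cycle phase in the histone differences was not tested.

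In the drug set the histone genes stood higher than in most sort libraries. Their summed level was 90.6 CPM in DMSO, 120.7 in no drug, 112.6 in DOT1L inhibition, and 103.1 and 129.5 CPM in LSD1 inhibition replicates 1 and 2. Ungated sort libraries ranged from 45.2 to 89.4 CPM. This difference between the sets was not tested. The S phase list was at 5.01 to 5.44 mean log2 CPM in the 5 drug set libraries.

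LSD1, which removes methyl groups from histone H3, was inhibited in 2 libraries that were set against DMSO and no drug. None of the 18 tested members passed in either direction by edgeR without a replicate block (0.114% of 14002 genes were higher, 0.00% lower). At an unadjusted p under 0.05 there were 0 members among 950 genes, and DESeq2 called 0. The median log2 fold change was 0.09, against -0.0048 over all genes. Leaving out 1 library turned its sign or moved it by more than 1.5 times, to -0.04 without DMSO, -0.02 without LSD1 inhibition replicate 2, 0.19 without LSD1 inhibition replicate 1 and 0.32 without no drug. The largest differences were H2AC25 (0.59 ± 0.25), H2BC5 (0.46 ± 0.27) and H2BC8 (0.31 ± 0.31). H2AC25 was at 5.59 against 2.92 CPM in replicate 1 and at 4.75 against 3.97 CPM in replicate 2. With the replicate number as a block H2AC25 alone passed, at 0.59 ± 0.20 (adjusted p = 0.0199, edgeR). That is 5.56% of the 18 members, where 2242 of all 14002 genes were called in either direction. In that fit 3 members were among 3769 genes at an unadjusted p under 0.05. H2BC5 was at 4.37 against 4.41 CPM in replicate 1 and at 6.50 against 3.54 CPM in replicate 2, so that its difference came from the second pair. H2BC8 was higher after LSD1 inhibition in both, at 3.08 against 2.48 and 4.44 against 3.60 CPM.

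DOT1L, which methylates histone H3 within its globular part, was inhibited in 1 library, so the difference from DMSO has no replicate check and no test. Of 21 members with 20 or more counts in the 2 libraries, 17 were above 0 and 4 below on the log2 scale, with a median of 0.24 against 0.00 over 13960 genes. H4C3 was 2-fold or more higher (3.37% of all genes) and no member 2-fold or more lower (0.587%). H4C3 had 24 counts after inhibition and 7 in DMSO, a log2 ratio of 1.43 with a 95% counting interval from 0.40 to 3.12, and it was at 0.435 CPM in no drug against 0.434 CPM in DMSO. In LSD1 inhibition it had 20 counts (1.28 CPM) in replicate 1 and 3 counts (0.188 CPM) in replicate 2. H2BC8 followed with 86 and 40 counts (0.96, interval 0.43 to 1.57) and H4C16 with 7 and 14 counts (-0.92, interval -2.66 to 0.29). The ratios use a prior count of 2, and the intervals cover counting error only.

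For several members the 2 control libraries differed from each other by more than DOT1L inhibition from DMSO. No drug replicate 2 stood above DMSO replicate 1 by 0.88 on the log2 scale for H2BC21 (20.1 against 10.9 CPM), by 0.88 for H4C8 (7.76 against 4.16 CPM) and by 0.86 for H2BC4 (5.40 against 2.92 CPM). DOT1L inhibition stood above DMSO by 0.56 for H2BC21 (16.1 CPM), by 0.53 for H4C8 (6.07 CPM) and by 0.80 for H2BC4 (5.16 CPM). H1-2 was at 8.93 CPM in DMSO, 14.7 in no drug, 13.1 in DOT1L inhibition, and 10.5 and 14.4 CPM in LSD1 inhibition. H2AC6, the highest member by CPM in this set, was at 19.5, 25.8, 20.5, 23.1 and 28.9 CPM in the same order. In both genes the second replicates were above DMSO with or without an inhibitor.

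**Figure D5:**
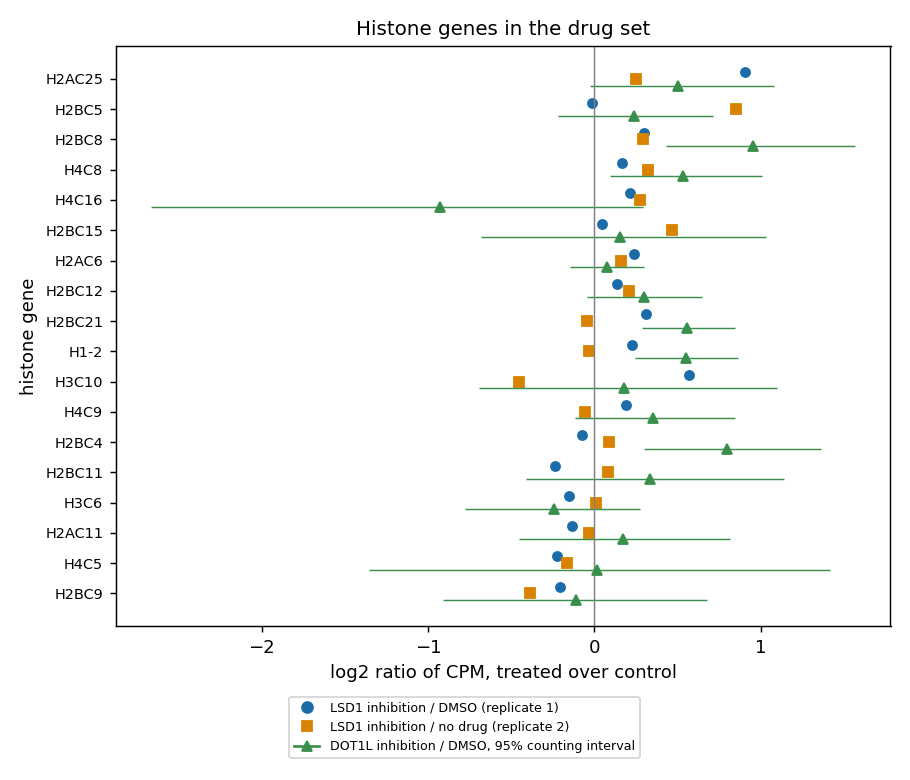
Log2 ratio of CPM, treated over control, for the 18 histone genes tested in the LSD1 comparison, shown for each LSD1 inhibition library against the control of its replicate number and for DOT1L inhibition against DMSO with a 95% counting interval. H2AC25 and H2BC5 each have 1 LSD1 library far right of the other, at 0.91 and 0.85, and most DOT1L points lie right of 0.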

How the data were processed

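STAR, HTSeq and the build hg38 (GRCh38) are named in the submitters' processing notes. Versions, annotation release and strand setting were not given in the sources used here. The deposited values are raw counts per Ensembl gene, without normalization by the authors. Gene names came from a gene table (57537 of 58302 genes) and coordinates and models from GENCODE 29, which may differ from the release used for counting. Counts were tested with edgeR 4.0.16 (R 4.3.3), TMM and filterByExpr (minimum count 10, total 15), over all genes, with an adjusted p under 0.05 as the threshold. DESeq2 1.42.0, other size factors, no filter, a replicate block and left-out libraries were alternatives. On simulated counts edgeR was checked for recovery of set changes. Exact permutation tests enumerated every assignment in Python 3.11.15 with numpy 2.4.6.

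Same-numbered sort libraries deviated together (40 of 40 correlations across genes above 0.1, 0.150 to 0.698), so the replicate numbers pair them, and blocked values are given where a call changes. No libraries of 1 group were copies (smallest chi-square per degree of freedom 8.22). Reads assigned to no feature were 4.33% to 7.72%. The histone genes and all lists were chosen with earlier results of these data known. Named were all members past a threshold (at most 10 per comparison, by size), the 3 with the highest level per kilobase in ungated cells, the 3 largest differences where none passed, and up to 4 genes per pathway list.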

Additional observations from a re-analysis of the deposited data

Results flagged for a closer look

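Each tested histone gene and the sum of all 69 were checked for a library far from the other three of its sort group, 120 groups in all, of which chance marks about 5% (1 in 20). This gave 15 values in 9 libraries, 13 of them at the high end. Of the 15 values, 10 came from 4 libraries of replicate 3, and 5 of these from midhigh dye replicate 3.

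In high dye, replicate 3 was far above the others in the sum of all 69 genes (152.1 CPM against 66.6 to 80.0), in H2BC8 (7.015 against 0.934 to 1.72) and in H2BC12 (13.85 against 5.19 to 6.66). In midhigh dye it was far above in the sum (103.4 against 49.1 to 57.4), in H2BC4 (3.073 against 0.698 to 1.08), H2BC5 (4.767 against 1.76 to 1.97) and H4C5 (0.8781 against 0.190 to 0.294), and far below in H1-5 (0.3763 against 0.881 to 0.888). In ungated cells H2BC8 was high in replicate 3 (3.586 against 0.855 to 1.01), and in low dye H2AC11 was (4.094 against 3.46 to 3.51).

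The other 5 were in other replicates. In ungated cells H1-5 was high in replicate 2 (1.122 CPM against 0.343 to 0.474), H3C8 high in replicate 4 (0.5925 against 0.266 to 0.321) and H2AC11 low in replicate 1 (1.831 against 2.67 to 2.84). H2AC8 was high in low dye replicate 2 (1.17 against 0.448 to 0.564), and H4C5 in midlow dye replicate 1 (0.6852 against 0.196 to 0.273).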

How the results depend on the processing

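Of the recomputed counts of members, 161 were within 1.5 times the reported count and 23 were not. With the replicate block, members lower in high than low dye numbered 2, members falling over the gates 2, and members higher in midhigh than midlow dye 3, higher in high dye than ungated 3, lower in low dye than ungated 3 and higher after LSD1 inhibition 1 (H2AC25, with 2242 genes called in all). The drug set shares only numbers: its 2 pairs correlated at 0.615. This is a single value, since 2 libraries of a group deviate from their mean by equal and opposite amounts. Without the count filter 0 members were lower in high than low dye and 2 lower in low dye than ungated. When only both outer gates were fitted 0 were lower. Leaving out 1 library at a time gave 3 to 10 higher and 0 to 1 lower members between the outer gates, and 7 to 13 rising and 1 falling over the gates. Leaving out all replicate 3 libraries, an alternative chosen after seeing the data, gave 3 higher and 0 lower between the outer gates and 5 rising and 0 falling over the gates. With the block in that set 1 was higher in midhigh than midlow dye, 2 higher in high dye than ungated and 2 lower in low dye than ungated. The cause was not tested. Over all genes, calls between the outer gates numbered 2589, 5433 with the block and 886 without replicate 3. Counts of members given here without the share over all genes at the same setting show how far the counts moved, not an excess over all genes.

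No recomputed log2 fold change of a single gene or ratio of neighbours changed direction, 570 kept their side of the threshold, 79 lost it and 12 gained it. Of single genes, only those past the threshold or, where none passed, the 3 largest differences were recomputed, which favours a kept direction. Between the outer gates, the log2 ratio of mean CPM turned sign without replicate 3 for the uncalled H2AC8 (-0.50), H1-5 (0.42) and H2BC9 (-0.01), and for no other tested member. The median over members after LSD1 inhibition (0.09) did change sign, from -0.04 without DMSO to 0.32 without no drug. With no count filter the median was 0.18 over the gates, 0.10 between the inner gates and -0.22 in low dye against ungated. The 3 head-to-head ratios that passed lost the threshold whenever a low dye library was left out (adjusted exact permutation p 0.0762 to 0.0857), with the same direction. The test has coarser steps with fewer libraries, and the outer gates stayed apart. With the replicate block, as a permutation within pairs chosen after seeing the data, exact p was 0.125 for each. That of H2BC4 over H2AC6 passed with 2 counts added (-0.70) and without high dye replicate 3 (-0.83). Low counts, under 1 CPM for most members, limit what could be detected.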
